A study of Homo sapiens with 8 samples.

Results

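The interaction of AsiDNA with belinostat was measured in U87, an established human glioblastoma cell line, as the difference between the belinostat effect in AsiDNA-exposed cells and the belinostat effect in DMSO cells. All 8 libraries of the series entered it, chosen because together they form a 2 by 2 design: 2 libraries of DMSO cells, 2 of cells under long-term AsiDNA treatment, 2 of cells given belinostat and 2 of cells given both agents. Belinostat was used at 1 µM for 24 h in cultures that the protocol calls MTU87 and LTAU87, names it does not spell out, and no dose or length of the AsiDNA exposure is given. All cells are of 1 line in the same serum-containing medium, and the labels do not say whether the libraries of a group came from separate cultures, so p-values measure only the spread between these libraries, which may be technical.

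Belinostat inhibits the zinc-dependent histone deacetylases, enzymes that remove acetyl groups from histones and other proteins. Cells under such inhibitors often stop dividing and both raise and lower large sets of genes. AsiDNA is a short double-stranded DNA molecule that mimics a broken DNA end and activates the break sensors DNA-PK and PARP away from the chromosomes. A 2 by 2 design asks whether the agents together give the sum of their separate effects on the log scale, which is the product of their fold changes on the linear scale.

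The interaction of a gene is given here in log2 units. A value of 1 means that the combination stood 2-fold above the level that the separate effects predict, and a value of -1 means 2-fold below. It was tested in 14741 genes of 58884 in the table, those that passed a filter on low counts, and a gene was called at a Benjamini-Hochberg adjusted p under 0.05 in edgeR's quasi-likelihood test. Levels are CPM, the counts of a gene relative to the effective size of its library and brought to the usual scale of this unit.

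The libraries held between 6057394 and 9699637 counted reads, so that 3 reads amounted to 0.309 to 0.495 CPM. The mesenchymal glioma genes VIM, CD44 and FN1 were abundant, and CDKN2A, CDKN2B and MTAP, which U87 has lost, had no read in any library. NES, of the same glioma list, was lower, at 42 to 429 reads in a library. The astrocyte marker GFAP had at most 5 reads in a library, and the endothelial, oligodendrocyte and immune markers CDH5, CLDN5, MOG, MAG and AIF1 had none. Other members of these marker lists did have reads, up to 176 in a library for PECAM1 and CSF1R, 82 for MBP and 71 for KDR. Among neuronal markers, SNAP25 reached 941 reads in a library and GAD1 242, while RBFOX3 had at most 1. The DMSO libraries differed from each other more than the libraries of any other group: among 8142 genes above a mean log2 CPM of 4, 11.2% differed by more than 1.5-fold between them, whereas the shares were 0.197% between the AsiDNA libraries, 0.823% between the belinostat libraries and 0.59% between those given both agents. Measured from the AsiDNA mean, 39 of these genes lay more than 1.5-fold away in DMSO replicate 1 and 1069 in DMSO replicate 2. DMSO replicate 2 therefore stood apart from the other untreated and AsiDNA libraries, and the interactions that follow are given with all 8 libraries. Where leaving out 1 DMSO library moved a printed gene value or median by more than 1.5-fold or turned its sign, the values from the fits without DMSO replicate 1 and without replicate 2 are added, in that order.

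With all 8 libraries, 1 gene was called for the interaction. It was AAAS, whose product, aladin, is a protein of the nuclear pore. The negative calls were thus 0.00678% of the genes tested and the positive calls 0.0%. At an unadjusted p under 0.05 there were 1869 genes with a positive and 1334 with a negative interaction, together 21.7% of the genes tested. DESeq2 called 524 positive and 125 negative genes on the same libraries, and limma-voom called none in either direction. Beside AAAS, 10 genes shared an edgeR adjusted p of 0.0515, and 706 genes lay under 0.1. Belinostat by itself moved many genes: 57.4% were called against DMSO and 42.9% in AsiDNA-exposed cells, while AsiDNA alone was called in 3 genes (0.0204%). The combination against belinostat alone gave calls in 43.4% of genes. That contrast and the interaction both contain the belinostat and the combination libraries, so they are set side by side only.

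**Figure D1:**
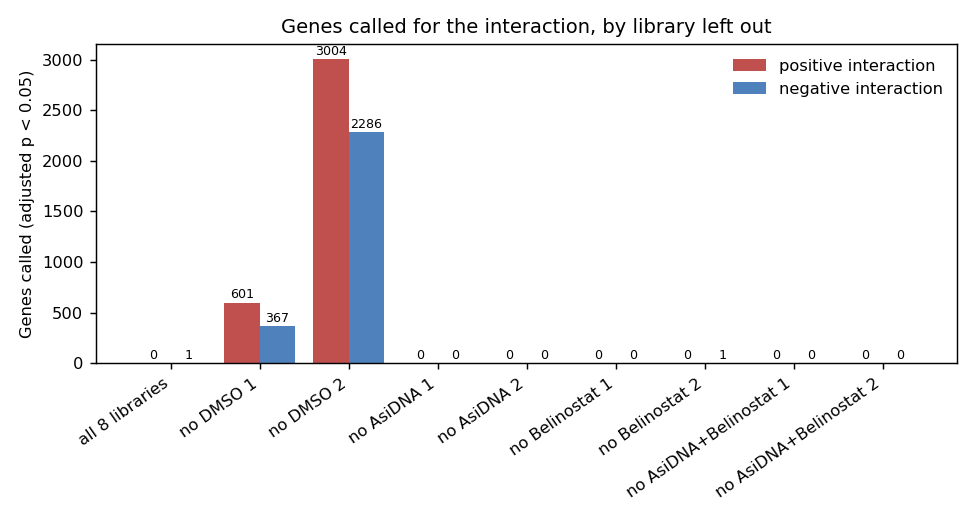
Number of genes called for the interaction (vertical axis; edgeR adjusted p under 0.05) with all 8 libraries and with each library left out; red bars are positive and blue bars negative interactions. Calls rise from 1 to 968 without DMSO replicate 1 and to 5290 without DMSO replicate 2, and stay at 0 or 1 when any other library is left out.

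Leaving out either DMSO library turned 1 call into many. Without DMSO replicate 1, 601 genes (4.08%) had a positive and 367 (2.49%) a negative interaction. Without DMSO replicate 2, the counts were 3004 (20.4%) and 2286 (15.5%). In these fits the remaining DMSO library has no partner, and it is assumed to vary like the libraries of the other groups. The median standard error of the interaction was 0.27 log2 units with all libraries and 0.241 without either DMSO library. The sign of the interaction differed between the fits for 3150 genes (21.4%), of which 264 were called in 1 of them.

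The examples given here of genes whose sign turned have a wide gap between the DMSO libraries and were chosen after their values were seen. CSMD2, a large membrane protein with CUB and sushi domains, stood at 249.8 and 554 CPM in the DMSO libraries, 211 and 223 in AsiDNA, 189 and 247 in belinostat, and 117 and 107 in the combination. Only the second DMSO library was high, and the interaction was 0.40 without DMSO replicate 1 (edgeR adjusted p = 0.075) and -0.75 without DMSO replicate 2 (edgeR adjusted p = 5.0e-05). NBEAL2, which is needed for granules in platelets, showed the same layout, with 12.6 and 37.3 CPM in the DMSO libraries and an interaction of 0.08 or -1.49. SCARNA10, a small RNA of Cajal bodies, was low in DMSO replicate 2 alone, at 31.9 and 6.92 CPM in the DMSO libraries, and its interaction was -0.33 or 1.87. The magnesium transporter gene NIPAL3 gave -0.05 or 0.96, and the interferon-stimulated gene IFIT5 gave -0.26 or 0.72.

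A set of 916 genes was called in both fits, 574 with a positive interaction (3.89% of the genes tested) and 342 with a negative one (2.32%), and no gene was called with opposite signs. They were 94.6% of the calls made without DMSO replicate 1 and 17.3% of those made without DMSO replicate 2. The fits share 6 libraries, so the overlap is not independent evidence, and this way of reading the interaction was chosen after the values were seen. In 913 of the 916 genes, all 16 values that can be formed from 1 library of each group had 1 sign. In the whole table, 3084 genes had all positive values (20.9%) and 2834 all negative values (19.2%). The 916 genes were picked by calls on these same libraries, so their single sign is not further support. At least 2-fold interactions with all libraries were reached by 134 of the positive and 150 of the negative genes. The positive share rose with level, from 0.11% at a mean log2 CPM of 2 or less to 8.81% at 6 to 8 and 27.1% above 8. The negative share was 0.44%, 4.16% and 3.05% in these bins. Shares of lists and classes are set beside all tested genes below, and were not matched for level. The set shrank to 9 positive and 2 negative genes with the log2 share of reads on sense-intronic genes as a further model term. A further term leaves fewer residual degrees of freedom, and with a term for the replicate number the set was 459 and 242 genes. The cause of the fall with the sense-intronic term was not tested. The set was 876 and 258 genes with library size in place of TMM factors. It was 1098 and 240 without the 10 most abundant genes, which moves the balance toward positive calls. It also hung on other libraries, being 178 and 86 without AsiDNA replicate 1, 284 and 168 without AsiDNA replicate 2, 1135 and 242 without belinostat replicate 1, and 651 and 122 without combination replicate 2.

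**Figure D2:**
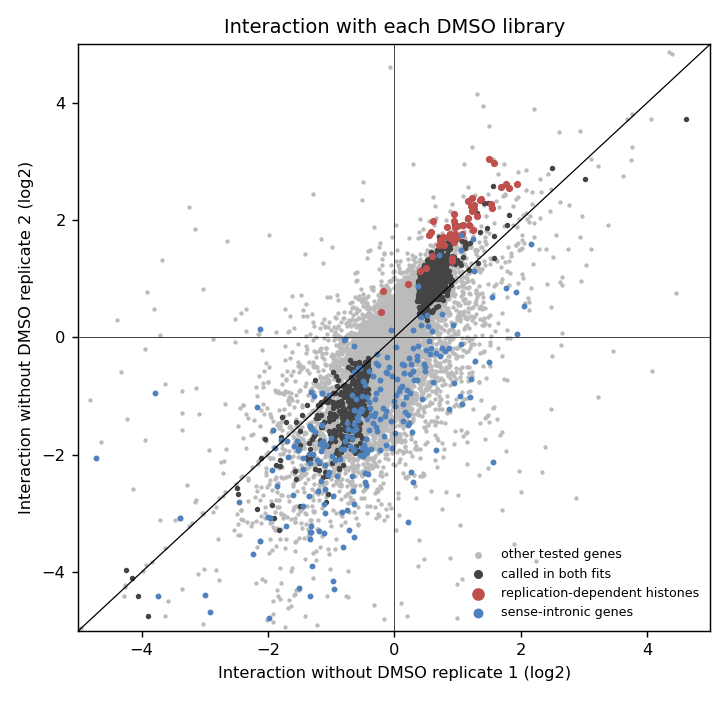
Interaction of each tested gene in log2 units without DMSO replicate 1 (horizontal axis) and without DMSO replicate 2 (vertical axis); dark points are the 916 genes called in both fits, red points replication-dependent histone genes, blue points sense-intronic genes, and the diagonal marks equal values. Histone genes lie above and right of zero and mostly above the diagonal, and most sense-intronic genes lie below zero on the vertical axis; points beyond 5 log2 units on either axis are outside the frame.

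Most genes of the set had a smaller or an opposite belinostat effect with AsiDNA. The effect kept its sign and was smaller in 341 of the 574 positive and 178 of the 342 negative genes. It had the other sign in 195 and 145, and was larger with the same sign in 38 and 19. The 574 positive genes had a median belinostat effect of -0.961 log2 units in DMSO cells and -0.152 in AsiDNA-exposed cells. For the 342 negative genes the medians were 1.08 and 0.0267. The interaction is the difference of these effects, so the medians describe the set and do not test it. Over all tested genes, the median size of the belinostat effect was 0.664 in DMSO cells and 0.523 in AsiDNA-exposed cells. The DMSO libraries moved with the set as well: 547 of the 574 positive genes were lower in DMSO replicate 2 than in replicate 1, and 45 of the 342 negative genes, against 7281 of the 13825 other genes. The part of the DMSO difference in the set was not tested beyond the fits without each library.

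AAAS lies on chromosome 12 (GRCh38, 53307456 to 53324864, minus strand) and has 14 merged exons. It stood at 33.2 and 38.2 CPM in DMSO, 38.6 and 35.1 in AsiDNA, 116.6 and 117 in belinostat, and 46.6 and 43.5 in the combination. Only the belinostat libraries were high, and the combination lay far below them. The separate effects predict 120.4 CPM for the combination. The interaction was -1.42 ± 0.19 (SE; edgeR adjusted p = 0.0439), and -1.33 or -1.53 with DMSO replicate 2 or 1 alone. Over 21 alternative settings it lay between -1.53 and -1.24, and the call held in 13 of them. The call was lost with limma-voom and with a test against a 1.5-fold change. It was also lost whenever an AsiDNA, belinostat or combination library was left out.

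Further genes with a small p in the test over all libraries followed the same layout, raised by belinostat alone and less or not at all by the combination. ALPK2, an alpha-kinase, stood at 83.3 and 91.8 CPM with belinostat and at 33.9 and 33.5 with both agents, from 24.5 and 27.0 in DMSO and 23.5 and 25.8 in AsiDNA. NABP1, a single-stranded DNA binding protein of the damage response, stood at 364 and 329 CPM with belinostat and at 134 and 114 with both, and its DMSO and AsiDNA libraries lay between 67.7 and 95.4. EBP, a sterol isomerase of cholesterol synthesis, stood at 94.9 and 83.8 CPM with belinostat, and its other 6 libraries lay between 39.9 and 48.2. The interactions were -1.31 ± 0.19 for ALPK2, -1.22 ± 0.21 for NABP1 and -1.17 ± 0.20 for EBP (SE). Each was called in both fits without a DMSO library and missed the threshold with all 8, at edgeR adjusted p of 0.0515, 0.0529 and 0.0515.

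The opposite layout, in which belinostat lowered a gene less in AsiDNA-exposed cells, was seen in several genes with a small p. CCND1, the gene of cyclin D1, stood at 1226 and 891 CPM in DMSO, 1181 and 1142 in AsiDNA, 143 and 165 in belinostat, and 435 and 433 in the combination. The combination lay above belinostat and below the untreated cells, with no overlap, and above the 168.9 CPM that the separate effects predict. Its interaction was 1.36 ± 0.21 (SE; edgeR adjusted p = 0.0515), and 1.12 or 1.58 with 1 DMSO library. E2F2, a transcription factor of S phase, stood at 7.63 and 8.47 CPM with belinostat and at 19.9 and 19.7 with both, from 44.8 to 48.3 in the 4 other libraries. HMGA1, a chromatin protein that bends DNA, stood at 34.7 and 34.9 CPM with belinostat and at 135 and 125 with both. HAS2, which makes hyaluronan, stood at 234 and 178 CPM in DMSO, 211 and 209 in AsiDNA, 4.34 and 6.27 in belinostat, and 13.5 and 19.6 in the combination, an interaction of 1.66 ± 0.30 (SE). LRRC15, a membrane protein of mesenchymal cells, was not called under belinostat in DMSO cells (236 and 186 CPM against 298 and 214) and rose with belinostat in AsiDNA-exposed cells, to 458 and 442 CPM from 202 and 212.

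**Figure D3:**
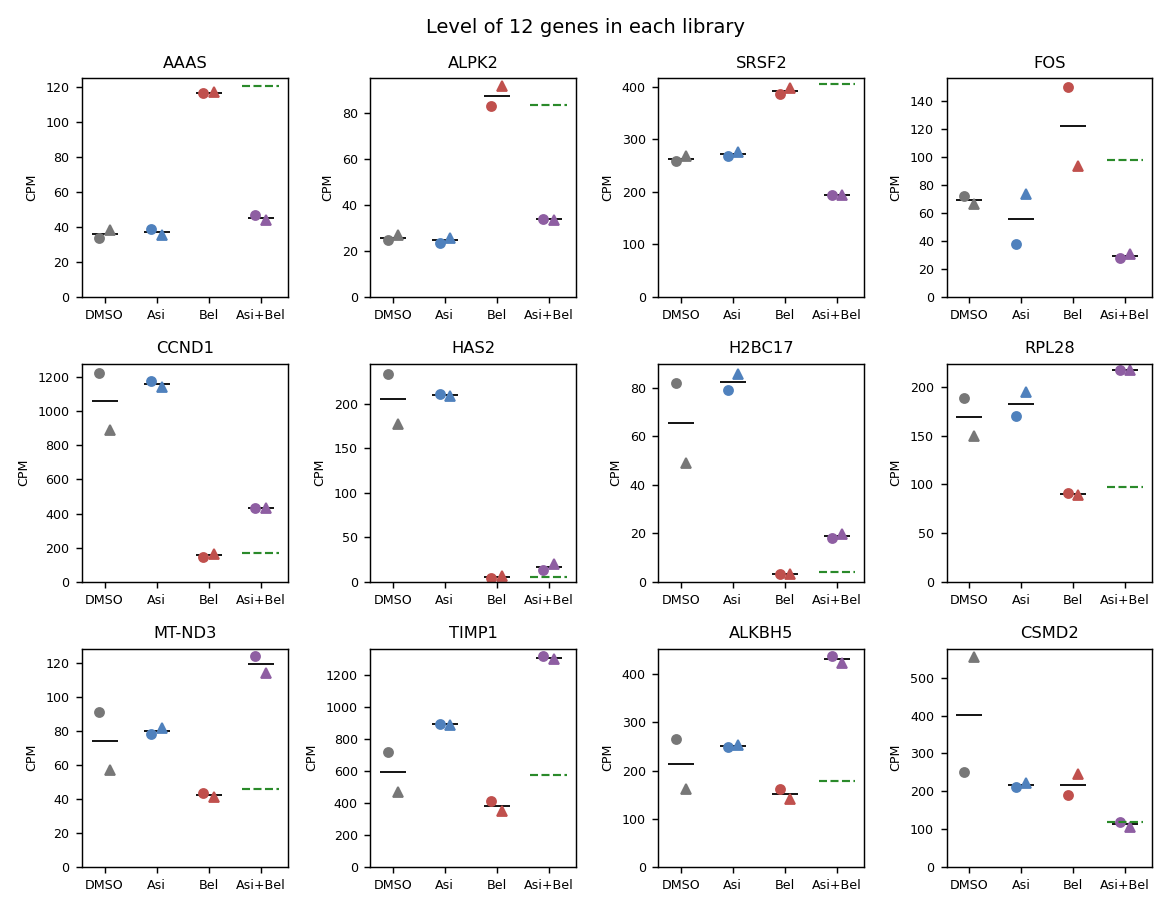
Levels of 12 genes in CPM (vertical axes, from 0) in each library, circles for replicate 1 and triangles for replicate 2; black lines are group means and green dashed lines the combination level that the separate effects predict. AAAS, ALPK2, SRSF2 and FOS lie below the dashed line with both agents, CCND1, HAS2, H2BC17, RPL28, MT-ND3, TIMP1 and ALKBH5 above it, and CSMD2 has 1 high DMSO library.

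Belinostat was called in both backgrounds in 5099 genes, 60.2% of the genes called in DMSO cells and 80.7% of those called in AsiDNA-exposed cells, comparisons that share no library. It moved 5072 of them in the same direction and 27 in opposite directions. In each of the 27 the libraries did not overlap in either background. The 27 were picked by their calls in both backgrounds, so the lack of overlap is not further support. SRSF2, an SR protein that binds exonic splicing enhancers (chromosome 17, 76734115 to 76737374, minus strand), stood at 259 and 268 CPM in DMSO and 387 and 399 in belinostat, and at 268 and 276 in AsiDNA and 193 and 193 in the combination. It rose with belinostat in DMSO cells and fell with it in AsiDNA-exposed cells, an interaction of -1.07 ± 0.16 (SE). The immediate early gene FOS showed the same turn, with 71.9 and 66.7 CPM in DMSO, 150.3 and 93.8 in belinostat, 37.8 and 73.6 in AsiDNA and 27.9 and 30.3 in the combination (interaction -1.75 ± 0.37, SE). The FOS replicates were far apart in 2 groups. MSL3, of a histone H4 acetyltransferase complex, had an interaction of -1.08 ± 0.19, and PRPF4B, a kinase of the spliceosome, -0.96 ± 0.20 (SE).

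The turn in the other direction, down with belinostat in DMSO cells and up in AsiDNA-exposed cells, was found in 18 of the 27 genes. ALKBH5, which removes methyl groups from adenosines in RNA, stood at 265 and 162 CPM in DMSO and 162 and 141 in belinostat, and at 249 and 253 in AsiDNA and 438 and 424 in the combination. The lower DMSO library sat next to the higher belinostat library, and the combination was the highest group. TIMP1, an inhibitor of matrix metalloproteinases, stood at 719 and 469 CPM in DMSO, 412 and 352 in belinostat, 895 and 890 in AsiDNA, and 1317 and 1302 in the combination. Its interaction was 1.19 ± 0.24 (SE), and 0.85 or 1.46 with 1 DMSO library. PTGES, which makes prostaglandin E2, DPYSL2, a protein of the neuronal cytoskeleton, and B4GALT1, a galactosyltransferase, had interactions of 1.04 ± 0.23, 1.09 ± 0.27 and 1.07 ± 0.21 (SE). DPYSL2 had 0.66 or 1.43 with 1 DMSO library.

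Replication-dependent histone genes were the gene group with the largest median interaction among the lists examined. They are transcribed in S phase to package new DNA, and their messages end in a stem-loop in place of a poly(A) tail. All 49 members that passed the filter, of 62 listed, had an interaction above 0, and 36 were called positive in both fits without a DMSO library, 73.5% of them against 3.89% of all tested genes. The median interaction was 1.49 log2 units, and 0.96 or 1.89 with 1 DMSO library, against -0.001, -0.013 and 0.001 over all genes. Their median belinostat effect was -3.09 in DMSO cells and -1.66 in AsiDNA-exposed cells. The median difference of DMSO replicate 2 from replicate 1 was -0.86 log2 units, and the histone share of all reads was 0.413% and 0.247% in DMSO, 0.448% and 0.47% in AsiDNA, 0.0463% and 0.044% in belinostat, and 0.156% and 0.171% in the combination. The combination share lay between the others in both libraries.

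The histone families had similar medians. The median interaction was 1.35 in 5 H1 genes, 1.55 in 13 H2A genes, 1.34 in 16 H2B genes, 1.65 in 7 H3 genes and 1.52 in 8 H4 genes. These medians lay between 0.884 and 1.17 without DMSO replicate 1 and between 1.69 and 2.11 without replicate 2. Gene families of near-identical copies can share reads, so values of single histone genes are uncertain where the counting could split them. H2BC17 stood at 82.1 and 49.2 CPM in DMSO, 79.1 and 86.0 in AsiDNA, 3.17 and 3.22 in belinostat, and 17.9 and 19.6 in the combination. Its interaction was 2.22 ± 0.35 (SE; edgeR adjusted p = 0.0515), and 1.81 or 2.55 with 1 DMSO library. H2AC12 stood at 3.52 and 3.05 CPM in belinostat and 24.0 and 22.7 in the combination, and H4C5 at 14.5 and 13.2 against 58.9 and 62.4. H3C12, with 83.4 and 28.5 CPM in the DMSO libraries, had an interaction of 1.49 or 3.04 depending on which of them was used. On the linear CPM scale the sign was other: the combination fell short of the sum of the separate changes in 36 of the 49 genes. Of the 574 positive genes in the whole set, 36 had the other sign on the linear scale and 24 of these were histone genes, whereas all 342 negative genes kept their sign.

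H2A and H2B genes share a known promoter element, the octamer ATTTGCAT. It is shown here as background on these families, and its part in the interaction was not tested. Genes with and without the octamer were not compared, and single H2B genes had interactions from 0.16 to 2.22. The octamer, on either strand (ATTTGCAT or ATGCAAAT), was found in the 250 bases before the RefSeq gene start in 10 of 12 H2A and 13 of 16 H2B genes with a promoter in the RefSeq table (GRCh38.p14), and in none of 5 H1, 5 H3 and 6 H4 genes. The share over all 27305 promoters of that length was 1.66%. The promoters of the 3 H2B genes H2BC17 (chr6:27893175-27893424, plus strand), H2BC11 (chr6:27132796-27133045, minus strand) and H2BC10 (chr6:26272681-26272930, plus strand) read as follows, 5′ to 3′ on the gene's strand, with the octamer in capitals.
H2BC17: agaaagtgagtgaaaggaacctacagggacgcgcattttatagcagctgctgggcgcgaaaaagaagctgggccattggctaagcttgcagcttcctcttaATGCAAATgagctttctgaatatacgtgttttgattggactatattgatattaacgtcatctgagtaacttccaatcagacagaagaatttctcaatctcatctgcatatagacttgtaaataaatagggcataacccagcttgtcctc
H2BC11: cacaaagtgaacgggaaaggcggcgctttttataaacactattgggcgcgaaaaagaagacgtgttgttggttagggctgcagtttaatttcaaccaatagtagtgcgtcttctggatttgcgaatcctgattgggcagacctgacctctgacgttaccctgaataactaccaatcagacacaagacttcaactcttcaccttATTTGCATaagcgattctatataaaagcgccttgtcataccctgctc
H2BC10: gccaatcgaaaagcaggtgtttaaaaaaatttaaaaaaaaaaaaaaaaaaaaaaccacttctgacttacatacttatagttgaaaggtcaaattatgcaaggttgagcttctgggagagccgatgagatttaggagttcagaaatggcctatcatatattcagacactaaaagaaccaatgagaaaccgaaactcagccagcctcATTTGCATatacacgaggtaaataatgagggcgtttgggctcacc
The element lies on the gene's strand 47 and 45 bases before the start of H2BC11 and H2BC10, and on the other strand 149 bases before that of H2BC17. The interactions of H2BC11 and H2BC10 were 1.81 ± 0.48 and 1.79 ± 0.38 (SE), beside the value of H2BC17 given above, and H2BC11 had 1.204 or 2.24 with 1 DMSO library. A match describes these letters only.

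Genes of DNA replication followed the histones at a smaller size. Of 38 members, 11 were called positive in both fits without a DMSO library, 28.9% against 3.89% of all tested genes, and the median interaction was 0.48, with 0.38 or 0.53 from 1 DMSO library. The median belinostat effect was -1.45 in DMSO cells and -0.93 in AsiDNA-exposed cells, and the median difference between the DMSO libraries was -0.06. MCM2, a subunit of the replicative helicase, stood at 162 and 132 CPM in DMSO, 171 and 170.1 in AsiDNA, 76.4 and 66.2 in belinostat, and 150.0 and 151 in the combination. MCM5, another subunit, had nearly equal DMSO libraries, 164 and 162 CPM, and stood at 52.1 and 54.9 CPM in belinostat and 91.6 and 88.5 in the combination. Its interaction was 0.71 ± 0.16 (SE) and 0.71 or 0.72 with 1 DMSO library. MCM6 had 0.81 ± 0.18, and the flap endonuclease gene FEN1 0.96 ± 0.21 (SE). In the G2 and mitosis list, 3 of 40 genes (7.5%) were called positive in both fits. The median interaction there was 0.20, and 0.094 or 0.294 with 1 DMSO library, beside median belinostat effects of -1.62 and -1.43.

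Ribosomal protein genes, the protein parts of the ribosome, had mostly positive interactions. Of 52 members, 26 were called positive in both fits, where the share over all tested genes was 3.89%. That share was 27.1% in genes above a mean log2 CPM of 8, and the list was not set against genes of like level. All 16 single-library values were positive in 47 members, and in 20.9% of all tested genes. The median interaction was 0.58, or 0.36 and 0.72 with 1 DMSO library. The median belinostat effect was -0.58 in DMSO cells and 0.03 in AsiDNA-exposed cells, and the median difference of DMSO replicate 2 from replicate 1 was -0.32. RPL28 stood at 189 and 150.3 CPM in DMSO, 171 and 195 in AsiDNA, 90.8 and 88.7 in belinostat, and 218 and 218 in the combination. Belinostat alone gave the lowest libraries and the combination the highest. RPS2 stood at 143 and 152 CPM in belinostat and 373 and 364 in the combination. Many ribosomal protein genes have processed copies elsewhere in the genome, so their counts carry the same uncertainty as those of the histones.

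The 13 protein genes of the mitochondrial genome, which code for subunits of the respiratory chain, were positive as well, and 10 were called in both fits, 76.9% against 3.89% of all tested genes. Their median interaction was 0.82, and 0.75 or 0.84 with 1 DMSO library, while single genes moved more, MT-ND3 to 1.00 or 1.68 and MT-CO3 to 0.76 or 1.14. The median moved further with the combination libraries, to a value of 0.525 without replicate 1 and 1.1 without replicate 2 of that group, and 1.08 without belinostat replicate 1. MT-ND3 stood at 91.1 and 57.1 CPM in DMSO, 78.2 and 81.8 in AsiDNA, 43.4 and 41.3 in belinostat, and 124 and 114 in the combination, and belinostat moved it in opposite directions in the 2 backgrounds (interaction 1.38 ± 0.25, SE). MT-CO1 and MT-CO3, subunits of cytochrome c oxidase, had interactions of 0.94 ± 0.23 and 0.96 ± 0.22 (SE). Nuclear genes of the respiratory chain had a median of 0.29, and 0.11 or 0.415 with 1 DMSO library. Of these 31 genes 1 was called positive in both fits (3.23%), a share near that of all tested genes.

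Several housekeeping and stress lists had positive medians, with different shares of called genes beside the 3.89% of all tested genes. In genes above a mean log2 CPM of 8 that share was 27.1%, and the lists were not matched for level. Of 13 tubulin genes, 5 (38.5%) were called positive in both fits, and the median was 0.60 (0.333 or 0.83 with 1 DMSO library). Of 18 genes of NRF2 targets, glutathione and iron, 5 (27.8%) were called, with a median of 0.56 (0.352 or 0.809). Of 26 genes of the unfolded protein and amino acid response, 4 (15.4%) were called, with a median of 0.53 (0.36 or 0.599). The calls in 2 further lists lay near the share of all genes: 1 of 19 heat shock and chaperonin genes (5.26%; median 0.50, and 0.28 or 0.688) and 2 of 30 proteasome genes (6.67%; median 0.33, and 0.135 or 0.44). TUBB, a beta-tubulin, stood at 996 and 588 CPM in DMSO, 1045 and 1078 in AsiDNA, 175 and 166 in belinostat, and 571 and 577 in the combination, an interaction of 1.33 ± 0.27 (SE). The alpha-tubulin TUBA1B had 0.87 ± 0.21. GPX1, a glutathione peroxidase, had 1.12 ± 0.24, the ferritin light chain FTL 0.98 ± 0.26, and the quinone reductase NQO1 1.04 ± 0.26 (SE). With 1 DMSO library FTL had 0.555 or 1.30 and NQO1 0.661 or 1.33. HSPA5, the chaperone of the endoplasmic reticulum, had 0.75 ± 0.20, and PHGDH, of serine synthesis, 0.72 ± 0.18 (SE). The cytosolic chaperone HSP90AB1 had 0.59 ± 0.20 (0.387 or 0.768 with 1 DMSO library) and the proteasome subunit PSMB2 0.87 ± 0.20 (SE). In these 5 lists the median difference of DMSO replicate 2 from replicate 1 was between -0.247 and -0.46 log2 units. VIM, the intermediate filament vimentin and a marker of mesenchymal glioma cells, had an interaction of 1.09 ± 0.26 (SE), and 0.718 or 1.38 with 1 DMSO library.

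**Figure D4:**
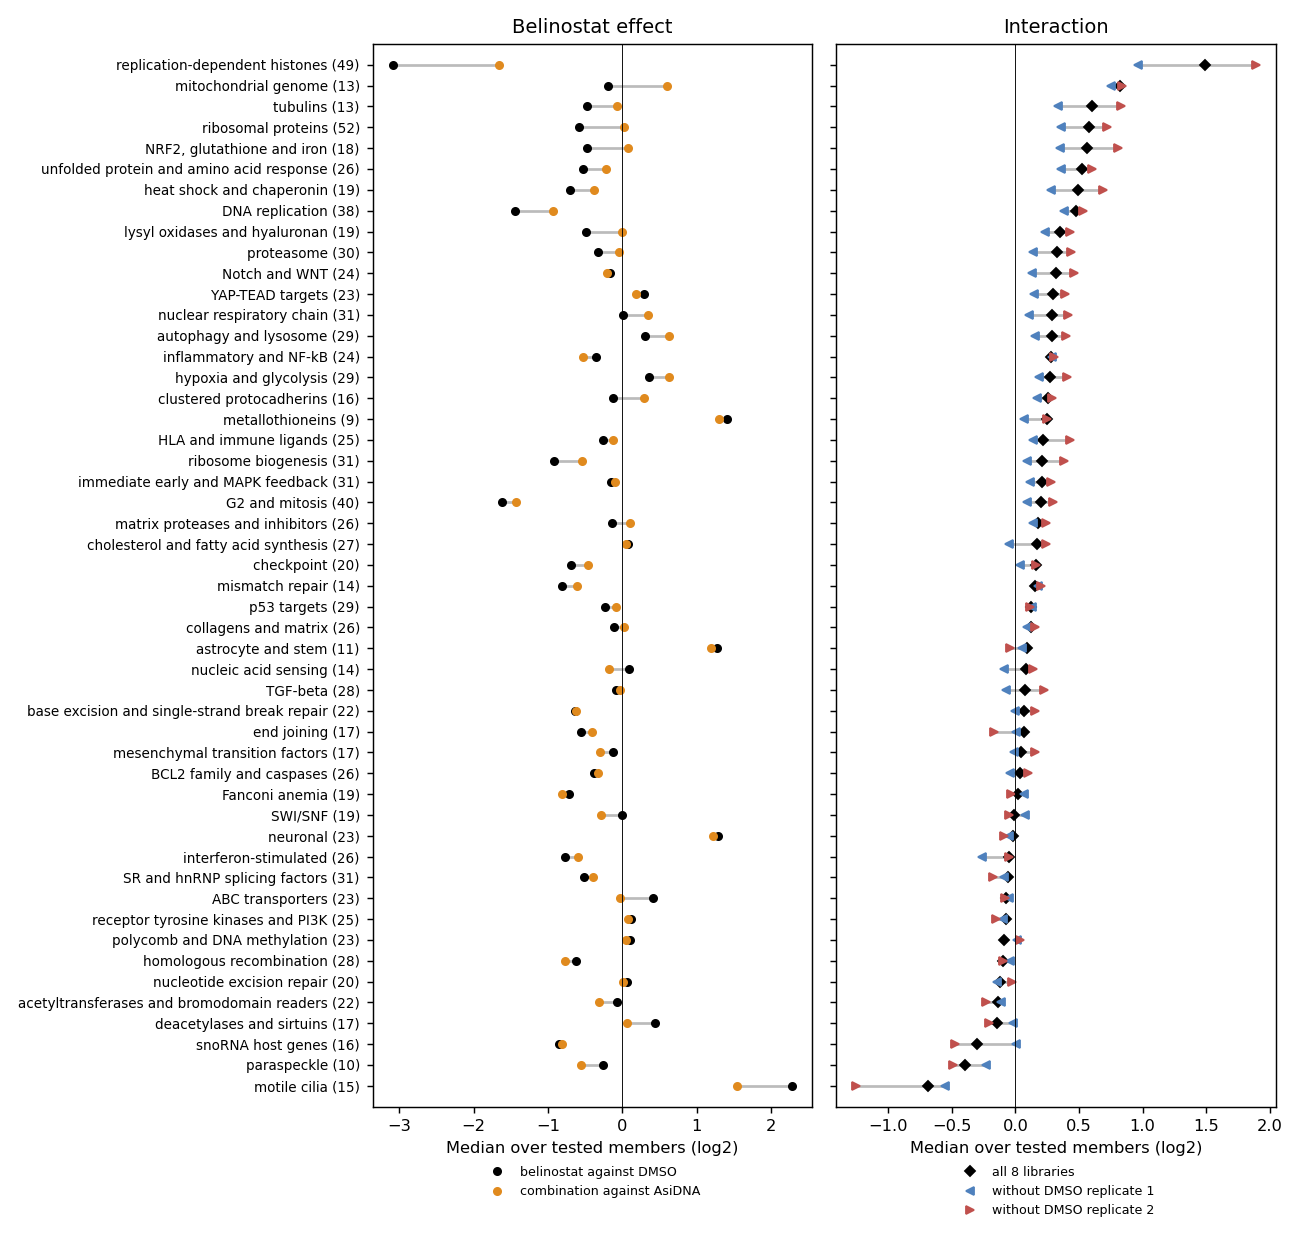
Left: median belinostat effect in log2 units over the tested members of each list (number in brackets) against DMSO (black) and, in AsiDNA-exposed cells, against AsiDNA (orange). Right: median interaction with all 8 libraries (diamonds) and without each DMSO library (triangles); histones, the mitochondrial genome, tubulins and ribosomal proteins are highest, and paraspeckle and motile cilia genes lowest.

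Lists of DNA repair genes had small median interactions, while some single repair and checkpoint genes did not. The lists of homologous recombination, end joining, base excision and single-strand break repair, mismatch repair, Fanconi anemia and nucleotide excision repair had medians between -0.12 and 0.16. These lay between -0.148 and 0.178 without DMSO replicate 1 and between -0.171 and 0.199 without replicate 2, with turns of sign in end joining, base excision repair and Fanconi anemia. Between 0 and 2 members of each list were called in a given direction in both fits. The positive share was highest for base excision repair, at 2 of 22 genes (9.09%), and lowest for lists without a positive call (0.0%). It was 3.89% over all tested genes. The negative share was highest for nucleotide excision repair, at 2 of 20 genes (10.0%), and again 0.0% at the lowest. It was 2.32% over all tested genes. Each list share rests on at most 2 genes. PRKDC, the catalytic subunit of DNA-PK, stood at 1176 and 1038 CPM in DMSO, 1187 and 1152 in AsiDNA, 849.6 and 669.8 in belinostat, and 976 and 1009.8 in the combination, an interaction of 0.31 ± 0.20 (SE; edgeR adjusted p = 0.382). The Ku subunit genes XRCC5 and XRCC6 had 0.55 ± 0.21 and 0.63 ± 0.22, PARP1 0.59 ± 0.21 and BRCA1 0.36 ± 0.17 (SE), and none of the 5 was called in both fits. XRCC5 had 0.279 or 0.776 and XRCC6 0.322 or 0.877 with 1 DMSO library. In DMSO cells belinostat lowered each of the 5. Of 20 checkpoint genes, 2 (10.0%) were called positive and 1 (5.0%) negative in both fits, beside 3.89% and 2.32% of all tested genes. The median of that list was 0.163, and 0.039 or 0.162 with 1 DMSO library. The checkpoint genes H2AX, the histone variant phosphorylated at breaks, and CDC25A, a cell cycle phosphatase, were called positive in both fits at 1.38 ± 0.28 and 0.99 ± 0.23 (SE). The break-sensing kinase ATM and the break-binding protein TP53BP1 were called negative in both, at -0.56 ± 0.18 and -0.40 ± 0.16 (SE). CDKN1A, the p21 inhibitor of cyclin-dependent kinases, stood at 127 and 98.7 CPM in DMSO, 122 and 127 in AsiDNA, 50.1 and 43.4 in belinostat, and 87.3 and 83.4 in the combination, an interaction of 0.72 ± 0.20 that was called in both fits.

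Of 17 tested deacetylase and sirtuin genes, 1 (5.88%) was called negative in both fits and 0 positive. The negative share was 2.32% over all tested genes, and the list share rests on 1 gene. That gene was HDAC6, the cytoplasmic tubulin deacetylase, which is among the deacetylases that belinostat inhibits. It stood at 60.1 and 75.7 CPM in DMSO, 61.1 and 59.2 in AsiDNA, 104 and 108 in belinostat, and 61.2 and 48.9 in the combination, an interaction of -0.77 ± 0.21 (SE). HDAC1, HDAC2 and HDAC3 had -0.30 ± 0.17, 0.19 ± 0.19 and -0.24 ± 0.17 (SE) and were not called in both, and HDAC2 had -0.016 or 0.36 with 1 DMSO library. HDAC3 rose with belinostat to 215 and 190.2 CPM from 68.5 and 64.7, and to 194 and 181 from 70.5 and 74.9 with AsiDNA. Of the genes most strongly raised by belinostat, DHRS2, a short-chain dehydrogenase, stood at 88.3 and 63.0 CPM with belinostat and 23.7 and 23.4 with both, an interaction of -1.84 ± 0.49 (SE) that was called without DMSO replicate 2 and not without replicate 1. LOXL4, a lysyl oxidase, and VSIR, an immune checkpoint receptor, went the other way, with 118 and 115 CPM against 153 and 151, and 26.5 and 27.9 against 43.4 and 36.0. Both had under 1 CPM in every library without belinostat, so their interactions rest on a few reads, and neither was called in either fit.

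Fewer lists had a negative than a positive median interaction. Motile cilia genes had the lowest median, -0.69 (-0.56 or -1.25 with 1 DMSO library) over 15 genes, of which 1 (6.67%, against 2.32% of all tested genes) was called in both fits. It was DNAH7, a dynein heavy chain, with 68.5 and 69.9 CPM under belinostat and 24.9 and 23.3 under both agents, from 3.64 to 5.92 in the untreated and AsiDNA libraries. Paraspeckle genes had a median of -0.40 over 10 genes, and -0.229 or -0.49 with 1 DMSO library, and none was called in both fits. Neuronal genes, which belinostat raised by medians of 1.29 and 1.21 in the 2 backgrounds, had a median of -0.02 (-0.048 or -0.089). Splicing factors of the SR and hnRNP families went both ways, with 2 positive (6.45%) and 4 negative (12.9%) calls in both fits among 31. The shares over all tested genes were 3.89% and 2.32%. HNRNPA0 and HNRNPA1, which bind nuclear RNA, had 1.09 ± 0.23 and 0.67 ± 0.17 (SE), while CLK1, a kinase of SR proteins, had -0.94 ± 0.23 and SRSF2 the negative value given above. VEGFA, the vascular growth factor, stood at 2689 and 3459.6 CPM in DMSO, 2889 and 2777 in AsiDNA, 5064 and 5189 in belinostat, and 2911 and 2712 in the combination, an interaction of -0.75 ± 0.21 (SE). Only its belinostat libraries stood apart. COL4A5, a basement membrane collagen, had -1.15 ± 0.21, and the long noncoding RNAs MIAT and SLC2A1-DT had -2.37 ± 0.58 and -1.93 ± 0.39 (SE), at levels under 30 CPM.

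Median interactions differed between gene classes. Protein-coding genes had a median interaction of 0.06 (0.014 or 0.101 with 1 DMSO library), whereas 252 sense-intronic genes, transcripts annotated within introns of another gene on the same strand, had -0.825, 650 antisense genes -0.444 and 600 lincRNA genes -0.464. With DMSO replicate 2 alone these medians were -0.466, -0.304 and -0.281, and with DMSO replicate 1 alone -1.459, -0.847 and -0.802. The sense-intronic genes stood 0.839 log2 units higher in DMSO replicate 2 than in replicate 1. Called negative in both fits were 5 of 252 sense-intronic (1.98%), 12 of 650 antisense (1.85%) and 11 of 600 lincRNA genes (1.83%). The share was 2.32% over all tested genes, 0.44% at a mean log2 CPM of 2 or less and 1.79% at 2 to 4. These classes were not set against genes of like level. Among protein-coding genes the median fell with the number of exons, from 0.541 in 296 genes of 1 exon (0.402 in 253 without the histones) to 0.215 at 3 to 5 exons, 0.024 at 11 to 20 and -0.096 in 2442 genes with more. Without DMSO replicate 1 the medians were 0.39 at 1 exon (0.237 without the histones), 0.116, -0.016 and -0.07, and without replicate 2 they were 0.658 (0.521), 0.308, 0.056 and -0.144. The DMSO difference ran the other way over these bins, from -0.319 to 0.052. The median interaction differed with level too: it was -0.379 in 3638 genes with a mean log2 CPM of 2 or less and 0.37 in 558 genes above 8. With 1 DMSO library these were -0.224 or -0.711, and 0.226 or 0.486.

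**Figure D5:**
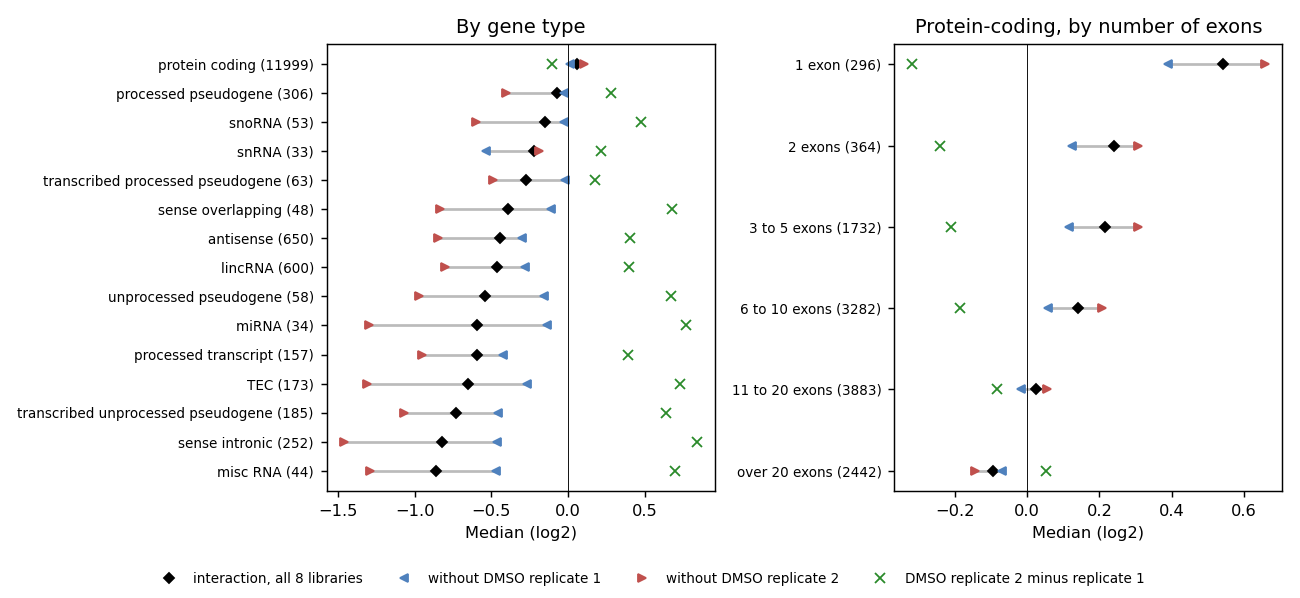
Median log2 values over the tested genes of each gene type (left) and of protein-coding genes by number of merged exons (right); diamonds are the interaction with all 8 libraries, triangles the interaction without each DMSO library, and crosses the difference between the DMSO libraries. Classes with a negative interaction have crosses right of zero, and genes with few exons the reverse.

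The share of reads on sense-intronic genes was 0.057% and 0.113% in DMSO, 0.0556% and 0.051% in AsiDNA, 0.128% and 0.142% in belinostat, and 0.0561% and 0.044% in the combination. DMSO replicate 2 lay near the belinostat libraries, and the combination at the level of AsiDNA. The nuclear long noncoding RNAs MALAT1 and NEAT1 together took 0.911% and 2.81% of reads in DMSO, 0.753% and 0.688% in AsiDNA, 12.2% and 13.4% in belinostat, and 3.12% and 2.06% in the combination. MALAT1, found in nuclear speckles, had an interaction of -0.99 ± 0.42 (SE), and -0.52 or -1.72 with 1 DMSO library, called in both. NEAT1, the scaffold of paraspeckles, had -1.01 ± 0.58, and -0.35 or -2.22, of which the second was called. Once the model held a term for the sense-intronic share, the median interaction was -0.0799 in sense-intronic genes, which that term describes in part by construction, 0.754 in histones, 0.26 in ribosomal proteins and 0.383 in DNA replication genes. In the mitochondrial genome it was 0.877, against 0.82 without the term. What the intronic share measures in these libraries was not tested.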

How the data were processed

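The deposited table holds raw read counts per Ensembl gene for 8 libraries, with no further normalization by the authors. Per the labels' protocols, libraries were made from total RNA with a stranded kit after removal of ribosomal RNA. Per the submitters' processing notes, cutadapt 1.16, STAR 2.7.0, Subread, featureCounts 1.6.3 and GRCh38 were used; no source used here gives their settings, the strand option or the annotation release. Counts that include intronic reads would depend on those settings, and genes that overlap, or lie antisense to each other, can share reads.

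Symbols were taken from a table of gene names (58472 of 58884 IDs) and gene types from GENCODE 29 (58611 IDs). The counts of all 8 libraries were fitted with edgeR 4.0.16 (R 4.3.3): filterByExpr, TMM factors, 1 coefficient per group, 4 residual degrees of freedom, and the quasi-likelihood test of the contrast (combination minus AsiDNA) minus (belinostat minus DMSO), with Benjamini-Hochberg adjustment over 14741 genes. Standard errors were derived from the log2 value and its F statistic. The same genes were refitted without each library in turn. Alternatives were RLE or library-size scaling, DESeq2 1.42.0, limma-voom (limma 3.58.1), other filters, thresholds and gene sets, robust dispersion, a replicate block and the log2 share of sense-intronic reads as a term. The procedure was tested on simulated data in which the libraries of a group shared the same mean. They held no deviating DMSO library, and only the fit with all 8 libraries was run on them. The fits without a DMSO library were thus not covered. Same-numbered libraries were not treated as pairs in the main fit. Their deviations correlated between -0.214 and 0.151, and whether the libraries were paired cannot be told from these values.

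The members and lists were chosen with earlier results of these data known. The 52 lists are described by counts and medians. Genes named are up to 4 members of a list with the smallest p, the 12 genes with the smallest p, the highest and lowest genes called in both fits without 1 DMSO library, genes whose sign turns between these fits, genes moved in opposite directions by belinostat, and a fixed set of deacetylase, repair, noncoding and belinostat-responsive genes. The rule for genes called with all 8 libraries and in both fits named AAAS alone; the other rules on p, both fits and opposite directions were added after values were seen.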

Additional observations from a re-analysis of the deposited data

Results flagged for a closer look

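Genes were flagged because belinostat moved them differently in DMSO cells and in AsiDNA-exposed cells. AAAS, at -1.42 log2 units, was flagged by the test of the interaction with all 8 libraries. The other 12 were moved in opposite directions by belinostat in the 2 backgrounds, and their interaction was called in both fits without 1 DMSO library but not with all 8. Negative values were found for FOS (-1.75), MSL3 (-1.08), SRSF2 (-1.07) and PRPF4B (-0.961). Positive values were found for MT-CO1 (0.945), MT-CO3 (0.959), PTGES (1.04), B4GALT1 (1.07), DPYSL2 (1.09), TIMP1 (1.19), ALKBH5 (1.27) and MT-ND3 (1.38). These 12 are examples from 27 genes with such opposite effects. The 8 genes with positive values were all lower in DMSO replicate 2 than in replicate 1, by log2 differences of -0.30 to -0.77; the negative genes had differences of -0.11 to 0.29. The part of this difference in the values was not tested beyond leaving out each DMSO library.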

How the results depend on the processing

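With all 8 libraries the counts of positive and negative genes moved with most settings: 7 and 3 with RLE factors, 139 and 18 with library size, 524 and 125 with DESeq2, 1180 and 369 without the low-count filter, 311 and 40 with at least 1 CPM in 2 libraries, 324 and 41 without the 10 most abundant genes, 170 and 68 with the sense-intronic term, 6 and 5 with robust dispersion, 456 and 250 at adjusted p under 0.1, and 3 negative with protein-coding genes only. The negative count was 0 at adjusted p under 0.01, with limma-voom and with glmTreat. Leaving out 1 library gave 0 to 3004 positive and 0 to 2286 negative genes. Genes called in both fits without a DMSO library were 266 and 120 at adjusted p under 0.01, 50 and 75 at 2-fold in both fits, 876 positive with library size, 997 and 202 without the filter, 1098 positive without the 10 most abundant genes, 116 negative with DESeq2, 587 negative at adjusted p under 0.1, 8 and 3 with glmTreat against 1.5-fold, and 9 and 2 with the sense-intronic term. Leaving out 1 more library gave 178 to 1135 positive and 86 to 429 negative genes. The cause of these moves was not tested.

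A replicate block gave 13 positive and 6 negative genes, and 459 and 242 in both fits. With the numbers of the combination libraries crossed, the block gave 433 and 260, and 509 and 296.

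Median interactions with the sense-intronic term were 0.754 in histones, 0.383 in DNA replication, 0.26 in ribosomal proteins and -0.0799 in sense-intronic genes, and DNA replication had 0.584 without the filter. Without 1 library the ranges were 0.963 to 1.89, 0.379 to 0.595, 0.362 to 0.724 and -1.46 to -0.466 for these lists, and 0.525 to 1.1 for the mitochondrial genome. Of the 76 genes followed, 7 changed sign somewhere. With the sense-intronic term CSMD2 had 0.767, NBEAL2 0.528, SCARNA10 -0.738, NIPAL3 -0.419, IFIT5 -0.55, HDAC2 -0.109 and NEAT1 0.26. CSMD2 had 0.0395 without the filter, 0.0135 with at least 1 CPM and 0.0128 without the 10 most abundant genes. Without 1 library the ranges crossing 0 were -0.75 to 0.4 for CSMD2, -1.49 to 0.0756 for NBEAL2, -0.33 to 1.87 for SCARNA10, -0.0468 to 0.958 for NIPAL3, -0.263 to 0.719 for IFIT5 and -0.0158 to 0.362 for HDAC2.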
